A study of Mus musculus with 2 samples.

Results

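Pseudogenes are copies of genes that no longer make the protein of their parent. Processed pseudogenes arose when the mRNA of a gene was copied back into the genome by the retrotransposon machinery, and unprocessed pseudogenes arose by duplication of genomic DNA. The RNAs described here were the sequences of 24 to 33 nt, the length range of PIWI-interacting RNAs (piRNAs), that matched the transcripts of exactly 1 annotated gene, on either strand, when that gene was of a pseudogene type in GENCODE release M21. MicroRNA sequences and fragments of structural RNAs were set aside first. This gave 3876 distinct sequences from 863 pseudogenes, of 671180 sequences of this length that were neither miRNA nor structural and of 1132769 distinct sequences in all. GENCODE M21 lists 13523 pseudogenes with a transcript.

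The sequences came from 2 small RNA libraries of whole testes of C57BL/6 mice at embryonic day 16.5 (E16.5), one from wild-type (WT) animals and one from Hsp90α knockout (KO) animals, with RNA from 20 pooled testes in each. The KO animals lack HSP90α, the chaperone encoded by Hsp90aa1. There was 1 library per genotype, so all tests and intervals below compare these 2 libraries, cover the sampling of reads only, and carry no information on the spread between animals. Counts were normalized to miRNA reads (2523084 in WT and 2561491 in KO) and are given per 1000000 miRNA reads, on which scale 3 reads are 1.19 in WT and 1.17 in KO. Total depth was 6409305 and 5589326 reads. In whole testes, fewer germ cells and less RNA per germ cell cannot be told apart. Small RNA reads give no check of the knockout itself: Hsp90aa1 had 2 single-gene reads of 24 to 33 nt in WT and 10 in KO. The mRNA markers of testicular cell types are not measured by these libraries.

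piRNAs guide PIWI proteins to transposons and other targets in germ cells. In fetal prospermatogonia, primary piRNAs tend to begin with uracil. Cleavage of a target by a loaded PIWI protein makes the 5′ end of a secondary piRNA that overlaps the guide by its first bases, so that it tends to carry adenine at the position opposite to the first uracil of the guide (the ping-pong cycle). An RNA antisense to a processed pseudogene is, apart from the mismatches between the copies, also complementary to the parent mRNA, which is why such RNAs have drawn interest as possible regulators of coding genes.

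The sequences below are the most frequently read of the pseudogenes on which the results turn, with base 1 and base 10 in capitals and T written for U, as in the deposited reads. The coordinates are those of GRCm38 with the strand of the RNA. The first 5 begin with T; the last 3 belong to the pseudogenes whose RNAs mostly did not.
Olfr1372-ps1, sense, chr11:52159645-52159672, minus strand: TgcaacggaAtgttatttggatgcgcct
Gm48348, sense, chr9:36090644-36090669, minus strand: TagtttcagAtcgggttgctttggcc
Gm45575, antisense, chr8:47627704-47627728, plus strand: TggtcactcGgggattgtagtattc
Gm47933, antisense, chr9:101757800-101757828, plus strand: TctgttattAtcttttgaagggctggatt
2610005L07Rik, antisense, chr8:20387928-20387954, plus strand: TtgaatgatAgaactgttccaagcagc
Gm3052, sense, chr1:34417601-34417626, minus strand: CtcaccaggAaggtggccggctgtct
Gm14654, antisense, chrX:46361732-46361759, minus strand: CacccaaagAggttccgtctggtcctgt
Gm13988, sense, chr2:123274143-123274171, plus strand: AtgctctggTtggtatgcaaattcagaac

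The pseudogene RNAs were read 4423 times in WT and 1762 times in KO, which is 1753 and 688 per 1000000 miRNA reads. This is a KO/WT ratio of 0.392, with a 95% interval (Clopper-Pearson) of 0.371 to 0.415 (exact conditional binomial test, p = 6.04e-268). The pseudogene RNAs made up 4.0% of the WT reads and 2.80% of the KO reads that matched a single gene. The ratio was 0.628 over all RNAs of 24 to 33 nt that were neither miRNA nor structural. It was 0.561 over those matching a single gene and 0.390 over those matching at least 10 genes. Structural RNA fragments of these lengths had a ratio of 0.874. Most sequences were rare: 3217 of the 3876 were read once in both libraries together, and 348 occurred in both libraries. The most frequent single sequence, the Olfr1372-ps1 RNA printed above, had 43 reads in WT and 27 in KO.

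At every length the interval of the ratio lay below 1. The ratio lay between 0.321 at 33 nt and 0.499 at 26 nt. RNAs of 28 to 32 nt had a lower ratio (0.361, interval 0.335 to 0.389) than RNAs of 24 to 27 nt (0.440, interval 0.404 to 0.479), and this difference exceeded the sampling of reads (Fisher's exact test, two-sided, p = 0.000582). It did not pass when each distinct sequence was counted once (p = 0.121, Fisher's exact test) or for sequences without a second gene within 2 mismatches (p = 0.546, Fisher's exact test). The mean length was 27.97 nt in WT and 27.87 nt in KO. RNAs of 28 nt were most frequent in WT, with 971 reads, and RNAs of 27 nt in KO, with 398. Lengths of 26 to 30 nt held 85.1% of the WT reads and 84.8% of the KO reads. At 418 of 3213 distinct 5′ ends, sequences of at least 2 lengths began at the same base, and these ends held 46.7% of all reads.

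Sense and antisense RNAs were nearly equal in number. In WT, 2227 reads were sense and 2196 antisense to the pseudogene transcript, an antisense share of 49.6% (95% Wilson interval 48.2 to 51.1). In KO, 964 were sense and 798 antisense, a share of 45.3% (43.0 to 47.6). The antisense share of RNAs specific to protein-coding genes was 13.9% (13.7 to 14.2) in WT and 8.63% (8.38 to 8.88) in KO, far below that of the pseudogenes, and that of long noncoding genes was 40.1% (39.6 to 40.7) and 36.7% (35.9 to 37.5).

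The antisense RNAs were more reduced than the sense RNAs. Their KO/WT ratio was 0.358 (0.330 to 0.388), compared with 0.426 (0.395 to 0.460) for sense RNAs (Fisher's exact test, two-sided, p = 0.00212). The difference did not pass when each distinct sequence was counted once (p = 0.133, Fisher's exact test), and the order turned, to 0.474 for antisense and 0.434 for sense, when sequences shared by several pseudogenes were added. Sense RNAs of protein-coding genes had a ratio of 0.655 (0.647 to 0.663), well above that of sense pseudogene RNAs (Fisher's exact test, p = 2.29e-29). Antisense RNAs of protein-coding genes had a ratio of 0.382 (0.368 to 0.396), and the difference from antisense pseudogene RNAs did not exceed the sampling of reads (Fisher's exact test, p = 0.158). Long noncoding genes stood nearer to the pseudogenes on the sense strand, with a ratio of 0.467 (0.455 to 0.479). Their antisense RNAs had a ratio of 0.405 (0.391 to 0.418).

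Uracil at the first position, the mark of primary piRNAs, was found in 74.6% of the WT reads (Wilson interval 73.3 to 75.8) and 72.2% of the KO reads (70.1 to 74.3), against a uracil content of 28.3% and 27.3% over all positions of these reads. The difference between the libraries, 2.34 percentage points lower in KO, did not pass the test (Fisher's exact test, p = 0.0628). It did so for antisense RNAs, where the share went from 73.8% (71.9 to 75.6) in WT to 67.5% (64.2 to 70.7) in KO (p = 0.000892, Fisher's exact test). Among sense RNAs it was 75.3% and 76.1% (Fisher's exact test, p = 0.654). Sense pseudogene RNAs in WT began with uracil more often than sense RNAs of protein-coding genes (64.3%; 11.1 percentage points, Fisher's exact test, p = 2.92e-28). The size of this difference moved with the counting, from 3.20 points with each distinct sequence counted once (Fisher's exact test, p = 0.00611) to 20.8 without near matches and 21.2 for sequences with at least 2 reads.

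Adenine at the tenth position, the mark of secondary piRNAs, was found in 44.0% of the WT reads (42.6 to 45.5) and 42.7% of the KO reads (40.4 to 45.1), against an adenine content of 26.4% and 26.9%. The libraries did not differ beyond the sampling of reads (Fisher's exact test, p = 0.363). In WT the share was 48.6% for antisense and 39.6% for sense RNAs (Fisher's exact test, p = 1.62e-09), while the adenine content was lower on the antisense strand (22.2%) than on the sense strand (30.6%). With each distinct sequence of the 2 libraries counted once, the shares were 40.8% and 38.7%. The order of the strands was not the same in all kinds of pseudogene RNA, as given below. RNAs that did not begin with uracil carried adenine at position 10 more often than those that did, 64.6% against 37.0% in WT (Fisher's exact test, p = 5.86e-58) and 63.8% against 34.6% in KO (p = 2.32e-28, Fisher's exact test). 

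The pseudogenes fell into distinct groups by the kind of sequence that gave the RNAs. Many transcripts annotated as processed pseudogenes contain copies of the retrotransposon L1. RNAs lying in stretches alignable to a 6046-nt L1 copy made up 1287 sequences from 107 pseudogenes and 39.4% of the member reads. A further 397 sequences (10.5% of reads) resembled, with up to 2 mismatches, transcripts of at least 9 other genes and are called other repeat-like. The remaining 2192 sequences from 643 pseudogenes (50.1% of reads) are called gene-like here. The name stands for the remainder only, and likeness to a coding gene was not required. The group includes the RNAs of Gm48348, which matched no coding sequence. It also includes most RNAs of Olfr1372-ps1, none of which lay wholly in the part that resembles a coding gene. Only 1020 sequences, from 388 pseudogenes, had no second gene within 2 mismatches. No genome sequence was used, so copies outside annotated transcripts are not counted in these matches.

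L1-like RNAs were more reduced than gene-like RNAs and carried adenine at position 10 more often. They had 1789 reads in WT and 647 in KO, a ratio of 0.356 (0.325 to 0.390), against 2175 and 922 reads and a ratio of 0.418 (0.386 to 0.451) for gene-like RNAs (Fisher's exact test, p = 0.00895). Adenine at position 10 was present in 55.9% of L1-like and 33.98% of gene-like WT reads (Fisher's exact test, p = 1.15e-43). Uracil at position 1 was present in 72.6% and 80.6% (Fisher's exact test, p = 3.20e-09). L1-like RNAs were 62.4% antisense to their pseudogene in WT and gene-like RNAs 41.1% (Fisher's exact test, p = 9.96e-41). L1-like RNAs were also longer, with a mean of 28.4 nt against 27.6 nt in WT. The first-uracil share of gene-like RNAs went from 80.6% in WT to 76.7% in KO (Fisher's exact test, p = 0.0172), and their share of adenine at position 10 was 33.98% and 34.06%. By strand of the pseudogene, adenine at position 10 was present in 63.3% of antisense and 43.7% of sense L1-like WT reads. The order was the other way for gene-like WT reads (31.4% and 35.8%) and other repeat-like WT reads (43.0% and 47.3%).

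By the strand of L1 itself, antisense RNAs had a ratio of 0.323 (0.286 to 0.364) and sense RNAs 0.408 (0.355 to 0.469; Fisher's exact test, p = 0.0117). When the L1 copy was divided into 5 equal parts, the second part (positions 1210 to 2418) held 39.9% of the L1-like reads, 69.6% of them antisense to L1, and the fourth (3628 to 4836) held 24.5%. The KO/WT ratio of the 5 parts ranged from 0.290 (0.209 to 0.396) to 0.393 (0.327 to 0.471). The intervals of all 5 parts overlapped.

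The direction of the comparison of antisense RNAs with protein-coding genes depended on these groups. Over all antisense members in WT, the first-uracil share was 2.87 percentage points below that of antisense RNAs of protein-coding genes (73.8% against 76.7%; Fisher's exact test, p = 0.00459), and the share of adenine at position 10 was 6.59 points above it (48.6% against 42.0%; p = 1.53e-08, Fisher's exact test). For gene-like antisense RNAs alone the first-uracil share was 6.20 points above (82.9%; Fisher's exact test, p = 1.54e-05) and the share of adenine at position 10 10.6 points below (31.4%; Fisher's exact test, p = 4.32e-10). Sense RNAs kept their direction: gene-like sense RNAs exceeded protein-coding ones by 14.6 points for first uracil and 7.37 points for adenine at position 10. Sense RNAs of long noncoding genes in WT had first uracil in 64.4% and adenine at position 10 in 36.7% of reads. For gene-like sense RNAs these shares were 78.9% and 35.8%. L1-like and repeat-like sequences were not removed from the RNAs of protein-coding and long noncoding genes. The comparisons with gene-like RNAs therefore set a filtered group against unfiltered ones.

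Pairs of sense and antisense RNAs whose 5′ ends overlap by 10 nt are the product expected from ping-pong cleavage, and were counted on each pseudogene over overlaps of 1 to 30 nt. In WT 1919 of 10739 read pairs overlapped by 10 nt (17.9%, against a mean of 2.83% for each other overlap), and in KO 366 of 1961 (18.7%, against 2.80%). This was the most frequent overlap in both libraries by reads. With each distinct sequence counted once it was so in WT (6.78%), while in KO 5 nt came first (10.7%, against 10.2% at 10 nt). The count by reads rested on sequences assigned to 1 pseudogene, an assignment that holds among annotated transcripts only. The pseudogene Gm17132, an L1-like sequence, gave 1852 of the 1919 pairs in WT and 354 of the 366 in KO, and without it the share was 2.59% in WT and 2.18% in KO. Of 205 pseudogenes with RNAs on both strands, 13 had a 10-nt pair in WT and 6 in KO. The gene-like RNAs had 55 such pairs of 979 in WT (5.62%) and 6 of 233 in KO (2.58%), and their most frequent overlap was another one, 22 nt in WT and 19 nt in KO. Counted with each distinct sequence once, 10 nt was their most frequent overlap in WT, with 31 of 415 pairs (7.47%, against a mean of 3.19%), and 5 of 127 pairs had it in KO. Outside L1, most 10-nt pairs in WT came from Olfr1372-ps1 (19), Gm45575 (16) and Gm12980 (14). The pairs below are a pair from Gm17132, the locus with most 10-nt pairs, and an example from outside L1, from Gm45575, which had no such pair in KO. The shared 10 bases are in capitals.
Gm17132, sense, chr5:127878285-127878314, plus strand: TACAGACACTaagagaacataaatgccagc
Gm17132, antisense, chr5:127878268-127878294, minus strand: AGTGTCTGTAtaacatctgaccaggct
Gm45575, sense, chr8:47627780-47627803, minus strand: GAGAGTCGGAagtacctgatcact
Gm45575, antisense, chr8:47627794-47627820, plus strand: TCCGACTCTCtgactctgagcccgcct

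In the Gm17132 pair the sense RNA, with 6 reads in WT and 1 in KO, began with T and the antisense RNA, with 33 and 14 reads, had A at position 10. In the Gm45575 pair the strands were exchanged. The antisense RNA, with 7 reads in WT and 4 in KO, began with T. The sense RNA, read once in WT, had A at position 10. Because both pairs were chosen for an exact overlap of 10 nt, base 10 of each RNA is the complement of base 1 of its partner. The A at position 10 therefore follows from the first T of the partner and is not a separate observation. Another overlap stood out on Gm14654, where sense and antisense RNAs overlapped by 27 nt in 38.1% of WT pairs and 44.8% of KO pairs and no pair overlapped by 10 nt. Its sense RNA below is nearly the full complement of the Gm14654 RNA printed above.
Gm14654, sense, chrX:46361733-46361760, plus strand: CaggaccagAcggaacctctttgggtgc

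For single pseudogenes, a KO/WT ratio of at most 0.5 or at least 2 was counted as changed among genes with at least 20 reads. Of the 58 pseudogenes with this depth, 42 (72.4%) had a ratio of at most 0.5, where 50.6% of all 1052 genes with at least 20 single-gene reads did. None had a ratio of at least 2, against 1.05% of all genes. The share was 57.9% (11 of 19) with at least 50 reads, where 55.8% of all genes had it, 58.6% against 40.6% when normalized to all reads, and 57.9% (22 of 38) against 44.9% when each distinct sequence was counted once. Of 6 pseudogenes with this depth in sequences without near matches, 4 had it, and no share over all genes was formed for this setting. The interval lay below 1 for 42 of the 58, against 49.7% of all genes, and above 1 for 0, against 0.76% of all genes. The median ratio was 0.384 over these pseudogenes (quartiles 0.241 and 0.511), 0.493 over all genes tested, 0.563 over the 779 protein-coding genes and 0.404 over the 214 long noncoding genes, and 69.6% of the latter had a ratio of at most 0.5. The median was 0.354 for the 34 pseudogenes with mostly L1-like RNAs and 0.390 for the other 24. The 2 pseudogenes above 1, named because they are the only ones, were Gm11331, with 14 reads in WT and 18 in KO (ratio 1.27, interval 0.595 to 2.75), and A330044P14Rik, with 11 and 13 (1.16, interval 0.481 to 2.87). Both intervals include 1.

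The reads were concentrated in few loci. The first 20 pseudogenes by abundance held 47.9% of the member reads and Gm17132 alone 10.1%, while 455 of the 863 pseudogenes had a single read. In all 20 the ratio was below 1, as it was in 89.5% of all genes with at least 20 reads, and in 17 the whole interval was. In 9 of the 20 antisense reads were the majority, and in 16 at least 50% of reads began with uracil. Among the 58 pseudogenes with at least 20 reads, 17 had at least 90% of their reads on one strand and 52 began with uracil in at least 50% of reads. No share over all genes was formed for strand or first uracil. These counts therefore describe the pseudogenes and do not set them apart from other genes.

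Gm17132 (chr5:127877333-127878490, plus strand), an unprocessed pseudogene inside the span of Tmem132d on its opposite strand, gave the most reads. It had 431 in WT and 191 in KO (ratio 0.437, interval 0.366 to 0.519). Antisense reads numbered 334 in WT and 137 in KO, and sense reads 97 and 54. All of its RNAs were L1-like. They covered 27.03% of its 1158-nt transcript, a density of 537 reads per kb. The share of its reads without another gene within 2 mismatches was 0%. Their place on this locus holds among annotated transcripts only, and L1 copies elsewhere in the genome were not searched. First uracil was present in 64.1% and adenine at position 10 in 58.5% of its reads. The other L1-like loci among the 20 differed from one another in strand and in bases. Gm47933 was 93.3% antisense, with first uracil in 96.2% and adenine at position 10 in 88.0% of reads, and had 166 reads in WT and 42 in KO (0.249, interval 0.173 to 0.351). Gm47147, inside the span of Copb2 on its opposite strand, was 95.6% antisense, with 45 reads in WT and 23 in KO (0.503, interval 0.291 to 0.850). Gm48177 was 91.1% sense, and 1 sequence gave 47 of its 79 reads. Gm47842, Gm48786, Gm43540 and Gm47331 matched best, among coding sequences, the genes Gm21750 or Gm21833, which themselves aligned to the L1 copy at 95.9% and 96.7% identity over 1500 nt, their whole length.

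Olfr1372-ps1 (chr11:52154722-52168159, minus strand) was the largest source outside L1. It is named as an olfactory receptor pseudogene, and its best coding match was the odorant receptor gene Olfr1383, at 97.3% identity over 933 nt. It had 258 reads in WT and 150 in KO (0.573, interval 0.465 to 0.703). Sense reads numbered 230 in WT and 128 in KO and antisense reads 28 and 22. First uracil was present in 84.1% of reads (80.2 to 87.3). None of its reads lay wholly in the part that resembles the receptor. Sequences identical to Olfr1383 could not enter, since they would match a second gene, so RNAs from that part may be missed. The 9812-nt transcript is spliced from 3 exons inside the long noncoding gene Gm26551 on the same strand. Gm48348 (chr9:36089920-36092359, minus strand), annotated as processed but without a coding match, had 148 reads in WT and 104 in KO (0.692, interval 0.533 to 0.895), the highest ratio of any pseudogene with at least 50 reads. It was mostly sense, with 107 and 73 sense reads, and first uracil stood at 69.4%. Gm48368, also processed and without a coding match, had 75 reads in WT and 43 in KO (0.565, interval 0.379 to 0.832) and first uracil in 78.0% of reads.

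Gm45575 (chr8:47627553-47628100, minus strand) was the most abundant pseudogene whose RNAs lay in a copy of a cellular mRNA. Its 548-nt transcript matched the coding sequence of Spata2 over 510 nt at 87.3% identity, and 230 of its 234 reads lay in that alignment. Spata2 encodes an adaptor protein of tumour necrosis factor signalling that was first described in testis. Gm45575 had 188 reads in WT and 46 in KO, a ratio of 0.241 (0.171 to 0.334). Antisense reads numbered 168 in WT and 43 in KO, and sense reads 20 and 3. The RNAs spread over 82.7% of the transcript with 64 distinct 5′ ends. First uracil was present in 86.8% of reads (81.8 to 90.5) and adenine at position 10 in 12.8% (9.13 to 17.7), which was below the adenine content of the members, and the mean length was 26.996 nt. Of the reads, 70.9% had no other gene within 2 mismatches, so these RNAs could be placed on this locus among annotated transcripts.

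2610005L07Rik, a transcribed unprocessed pseudogene related to the cadherin gene Cdh11 (93.1% identity over 816 nt), had 65 reads in WT and 15 in KO (0.227, interval 0.120 to 0.403). It was 80.0% antisense, with first uracil in 85.0% and adenine at position 10 in 62.5% of reads. None of the reads lay wholly in the cadherin-like part, where sequences identical to Cdh11 could not enter. Gm21050, a copy of Dlgap5, which encodes a mitotic spindle protein, had 32 reads in WT and 20 in KO (0.616, interval 0.334 to 1.11) and was 76.9% antisense. Of its 52 reads, 23 lay in the Dlgap5 alignment. The interval of its ratio includes 1.

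Gm9973 and Gm45551 were among the 5 lowest ratios of the pseudogenes with at least 50 reads, a choice made on the ratio itself. Gm9973 had 60 reads in WT and 12 in KO (0.197, interval 0.0965 to 0.370). Gm45551 had 51 and 7 (0.135, interval 0.0518 to 0.299). Their RNAs were related: 16 of the 18 Gm45551 sequences shared a stretch of 24 nt, with up to 2 mismatches, with a Gm9973 sequence. The RNAs were antisense to Gm9973 (91.7% of reads) and sense to Gm45551 (96.6% of reads), and nearly all began with uracil (94.4% and 100%). Gm45551 resembles Zscan4-ps2, a gene of the zinc finger group Zscan4, but no read lay wholly in that alignment. Its identity there was 98.6% over 222 nt, and sequences identical to Zscan4-ps2 could not enter. The most abundant related pair is shown, with the single base that differs in capitals.
Gm9973, antisense, chr13:4381927-4381953, plus strand: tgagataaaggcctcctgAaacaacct
Gm45551, sense, chr7:11479261-11479287, plus strand: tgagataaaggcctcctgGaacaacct

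In 4 of the 20 pseudogenes fewer than 50% of reads began with uracil. Gm14654 had 72 reads in WT and 33 in KO (0.451, interval 0.290 to 0.691), first uracil in 20.0% and adenine at position 10 in 74.3%, and its sense and antisense reads were equal in number in WT, with 36 and 36, and stood at 11 and 22 in KO. Gm3052 had 135 and 73 (0.533, interval 0.395 to 0.713), with first uracil in 26.4% and adenine at position 10 in 62.0%. In both, adenine at position 10 was more frequent than the first uracil. Gm13988 and Gm9864 had neither mark: first uracil stood at 20.3% and 35.3%, adenine at position 10 at 16.2% and 28.2%, and the mean length was 29.2 and 29.3 nt, the longest of the 20. Gm13988 is a copy of the coding gene 1500011B03Rik over 278 nt at 89.9% identity, with 46 reads in WT and 28 in KO (0.600, interval 0.361 to 0.980). Gm9864 had 60 and 25 reads (0.410, interval 0.247 to 0.665), of which 77.6% were other repeat-like.

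Parents were assigned as the best match among coding sequences, over at least 100 nt at an identity of at least 70%. A match was found for 780 of the 863 pseudogenes. Of those not dominated by L1-like RNAs, 689 had one, and for 582 it covered at least 50% of the transcript, with a median identity of 90.7%. Of 82 symbols ending in -ps with a match, 44 had a root equal to the assigned parent and 77 shared the letters of their name with it. These 582 copies gave only 1686 reads, since most of the abundant loci named above are not among them. Inside the parent alignment they had 554 sense reads in WT and 212 in KO (0.377, interval 0.320 to 0.442) and 565 antisense reads in WT and 205 in KO (0.357, interval 0.303 to 0.420). First uracil was present in 76.6% of the sense and 81.9% of the antisense reads, and adenine at position 10 in 26.2% and 26.8%.

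The antisense RNAs of these copies were complementary to coding sequences of 205 parent genes, with mismatches. Of 770 antisense reads, 164 differed from the parent at 1 position, 185 at 2, 169 at 3, 58 at 4 and 194 at 5 or more, and 45.3% had up to 2 mismatches. Of 766 sense reads, 43.3% had up to 2. A sequence identical to the parent could not enter, since it would match a second gene. Sequencing errors in parental RNAs would also give such mismatches, and their part was measured only by looking for the parental version of each sequence among the reads. For sequences 1 mismatch from the parent, it was read for 17 of 172 sense (9.88%) and 8 of 149 antisense sequences (5.37%), and it had more reads than the pseudogene version for 8 and 2. The sequences below were chosen after their values were seen, to show how close copy and parent are. Each RNA is followed by the matching stretch of the parent's coding sequence, on the strand that reads like the RNA, with the differing bases in capitals.
Gm45575, antisense, chr8:47627704-47627728, plus strand: tggtcacTcggggAttgtagtaTtc
Spata2, opposite strand of the coding sequence, chr2:167484171-167484195: tggtcacCcggggCttgtagtaGtc
Gm14460, antisense, chr2:78512997-78513024, plus strand: tgccggtctggagcctgtTggcacctgc
Rpl10l, opposite strand of the coding sequence, chr12:66284015-66284042: tgccggtctggagcctgtCggcacctgc
Gm11295, sense, chr13:22282715-22282742, plus strand: tgctgtacattctgatgTccaaaggcct
Elovl6, coding strand, chr3:129628315-129628342: tgctgtacattctgatgAccaaaggcct

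The Spata2-like RNA, with 29 reads in WT and 6 in KO, differs from its parent at 3 positions. The RNA antisense to Gm14460, a copy closest to the ribosomal protein gene Rpl10l, had 2 reads in each library and 1 difference. The RNA of Gm11295, a copy of the fatty acid elongase gene Elovl6, had 12 reads in WT and 1 in KO and 1 difference. Gm11295 as a whole had 18 reads in WT and 3 in KO (0.164, interval 0.0310 to 0.562), all but 4.76% of them sense.

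The parents were grouped by their symbols. Copies of genes with ribosomal protein symbols were the most numerous, with 162 pseudogenes, but gave 236 reads in WT and 101 in KO (0.422, interval 0.331 to 0.534). Their reads were 60.5% antisense and 77.2% began with uracil. The group took in 1 copy of the kinase gene Rps6kb1 by its symbol, with 3 reads in WT and 0 in KO. Leaving out mostly L1-like pseudogenes, the parents with most pseudogenes that had a read were Rpl7a, with 26 and 41 reads, and the glycolytic enzyme gene Gapdh, with 12 and 28. Pseudogenes without a read are not in these numbers. A ratio of at most 0.5 was found in 50.6% of all genes with at least 20 reads. Only 2 of the ribosomal protein copies had at least 20 reads, and both had such a ratio. These, and Gm11927 below, are named after their values were seen. They were 1700084J12Rik, closest to Rpl7l1, with 21 reads in WT and 3 in KO (0.141), and Gm12980, a copy of Rpl10, with 16 and 7 (0.431, interval 0.150 to 1.11). Copies of mitochondrial respiration genes (13 pseudogenes) had 43 reads in WT and 11 in KO (0.252, interval 0.117 to 0.497), of which 32 belonged to the Ndufs3 copy Gm11927. Copies of glycolysis genes (17) had 32 and 10 (0.308, interval 0.135 to 0.642), of chaperone genes (11) 30 and 11 (0.361, interval 0.163 to 0.741), of cytoskeletal genes (6) 19 and 5 (0.259, interval 0.0756 to 0.718), of chromatin and nuclear protein genes (10) 21 and 6 (0.281, interval 0.0929 to 0.721) and of translation factor genes (7) 12 and 6 (0.493, interval 0.152 to 1.42). Drug metabolism and serpin genes had 2 copies with 7 and 1 reads, and immunoglobulin and T cell receptor genes 1 with 1 read. The intervals of these groups overlapped one another.

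The chemosensory receptor group (10 pseudogenes, 268 reads in WT and 154 in KO, 0.566, interval 0.461 to 0.693) consisted mainly of Olfr1372-ps1, with 408 of its 422 reads. The zinc finger group (28 pseudogenes, 94 and 21, 0.220, interval 0.130 to 0.356) included the 58 reads of Gm45551. In both cases no read of the leading locus lay wholly in the receptor-like or zinc finger-like part. Sequences identical to the parent there could not enter, since they would match a second gene. Pseudogenes without a coding match and without mainly L1-like RNAs (69) had 565 reads in WT and 296 in KO (0.516, interval 0.447 to 0.595), and the 689 with a match had a ratio of 0.389 (0.359 to 0.422).

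Copies of the genes of the Hsp90 and piRNA pathways were close to the limit of detection. AC127693.3, a copy of Hsp90aa1 itself (81.5% identity), had 1 sense read in each library. Gm15528, a copy of Wdr77, which encodes a partner of the arginine methyltransferase PRMT5, had 1 sense read in WT. Gm18009, which resembles the deubiquitinase gene Stambp over 205 nt at 71.2% identity, had 1 antisense read in KO, not wholly in that stretch. No RNA matched Stambp-ps1 alone, and with 0 reads up to 1.19 reads per 1000000 miRNA reads in WT and 1.17 in KO are possible. No ratio was formed for these.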

How the data were processed

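The authors extracted total RNA with Isogen, made TruSeq Small RNA libraries, sequenced them on a MiSeq, removed adaptors and deposited, unmapped, each distinct sequence with its raw count. The labels name mm9, but the deposited counts carry no positions. Exact matches of sequences of at least 16 nt were searched on either strand of 141767 GENCODE M21 transcripts (GRCm38), since no genome, repeat library or nuclear tRNA set was used here; a match to 1 gene is therefore a match among annotated transcripts only. KO/WT ratios were formed on miRNA reads, with exact conditional binomial tests and 95% Clopper-Pearson intervals. Shares have 95% Wilson intervals. Fisher's exact tests were two-sided. After Benjamini-Hochberg adjustment over the 61 of the main setting, the same 46 stayed under 0.05 (largest adjusted p 0.0228). The p-values of the alternatives were not adjusted. Parents, the L1 copy (in Gm47578, located with the study's primers) and its alignments came from BLAST 2.17.0. Named pseudogenes were the first 20 by summed abundance, the first 5 per strand, the 5 lowest and 5 highest ratios with at least 50 reads, and copies of Hsp90, piRNA pathway and Stambp genes; other names are marked as chosen afterwards. The members, lists and rules were chosen with earlier results of these data known. Matching, overlaps and intervals were tested on simulated data. Alternatives covered the normalizing total, distinct sequences, read minimum, mismatches, shared sequences, pseudogene type and single loci. Files hold no comparisons by the authors. Versions were scipy 1.17.1, numba 0.67.0, pandas 2.3.3, numpy 2.4.6 and Python 3.11.15.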

Additional observations from a re-analysis of the deposited data

How the results depend on the processing

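No paired analysis was possible because each genotype has 1 library, and no library could be left out. The KO/WT ratio of all members stayed below 1 and past the test under all 11 alternatives, between 0.377 and 0.464, as did those of each strand and length class (0.331 to 0.572 in all). The antisense ratio divided by the sense ratio was 0.904 with distinct sequences counted once, no longer past the test, and turned to 1.09 when sequences shared by several pseudogenes were added. The 28-32-nt ratio divided by the 24-27-nt ratio was 0.899 with distinct sequences and 0.926 without near matches, neither past the test. The KO minus WT difference in first uracil, -2.34 percentage points, passed the test without near matches (-5.40), with shared sequences (-9.99) and without repeats (-3.87; this alternative was chosen after seeing the data). That in adenine at position 10, -1.31 points, passed without the most abundant sequence of every pseudogene (-3.49) and with shared sequences (-5.89), and changed sign, without passing, without near matches (1.44) and without repeats (0.0794). Against protein-coding antisense RNAs in WT, the first-uracil difference of -2.87 points turned to 0.0613 without Gm17132, 0.284 in processed pseudogenes, 10.1 without near matches and 6.20 without repeats, and was -14.6 with shared sequences. The difference in adenine at position 10 of 6.59 points turned to -14.6 without near matches and -10.6 without repeats, and was 1.77 with shared sequences. The share of 10-nt overlaps was 6.78% in WT and 10.2% in KO with distinct sequences, and 2.59% and 2.18% without Gm17132. The causes were not tested. In the alternatives without near matches or without repeats the protein-coding RNAs were not filtered likewise. With 83.0% of the sequences read once, depth limits single sequences, and ratios of pseudogenes under 20 reads are not resolved.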
